A study of Mus musculus with 27 samples.

Results

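The MHC class II antigen presentation genes were followed in tibialis anterior muscle after volumetric muscle loss (VML). The 7 genes H2-Aa, H2-Ab1, H2-Eb1, Cd74, H2-DMa, H2-DMb1 and Ciita were chosen by symbol among 54532 genes, and each symbol matched 1 gene. All mice were C57BL/6, and per the study's methods they were 8-week-old males. In the injured mice 40% of the muscle was excised. The samples comprised 5 muscles from mice labelled Control, without injury, and 5, 6, 6 and 5 muscles at 3, 7, 14 and 21 days after VML. The public record calls the excision unilateral and the study's methods call it bilateral, and the labels do not say which muscles came from 1 mouse, so p-values measure the spread between samples. RNA was taken from whole muscle, in which every cell type contributes, and 1 strain, 1 sex and 1 injury size were studied.

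MHC class II molecules display peptides from the endosomal pathway to CD4+ T cells. An alpha chain (H2-Aa) and a beta chain (H2-Ab1) form the I-A molecule, and H2-Eb1 encodes the beta chain of I-E. The invariant chain Cd74 fills the peptide groove during transport, and the H2-DM heterodimer (H2-DMa with H2-DMb1) then exchanges its remnant for peptide. Ciita is the coactivator that switches these genes on, and it acts through the RFX, CREB and NF-Y proteins bound at the X and Y boxes of their promoters. Dendritic cells, B cells and macrophages are the main cells that express class II, and interferon gamma induces it in further cell types.

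Fragments per kilobase of gene length, scaled to sequencing depth (FPKM), were compared, from libraries of 14376395 to 24436763 reads (median 17398586). By distance to the group means over the genes tested, 9 of the 27 samples lay nearest to another group. Among them were day 7 replicate 3, nearest to the muscles without injury, day 7 replicate 6, nearest to day 21, and samples of day 14 and day 21. The library labelled day 3 replicate 5 lay nearest to day 7, and the library labelled day 7 replicate 5 nearest to day 3. Values without these 2 libraries are given beside the rises of the class II genes in the fit and beside most counts of the gene lists. The rises given for Ciita and for single listed genes at these times include both libraries. Muscle fibre genes identified the tissue: the 6 markers summed to 71796 to 86879 FPKM without injury and to 17937 to 47383 FPKM at day 3, when 6 of 6 fell with the deposited scaling (3 of 6 with each sample's FPKM set to the same sum, and 4 of 6 with each sample's own read total). The deposited FPKM carries a scaling between samples, and its denominator was 0.747 to 0.819 times the sample's own reads without injury against 1.14 to 1.48 times at day 3.

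The genes of the classical and DM chains lie in the class II region of chromosome 17 (GRCm38, coordinates of the deposited table). H2-DMa spans chr17:34135182-34139101 and H2-DMb1 spans chr17:34153072-34160230. H2-Ab1 spans chr17:34263209-34269418 and H2-Eb1 spans chr17:34305877-34316199, all of these on the plus strand, with H2-Aa at chr17:34282744-34287827 on the minus strand. Cd74 and Ciita lie on other chromosomes.

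RefSeq promoter windows (GRCm38.p6) of 250 bases before to 50 after the start were found for 4 of the 7 genes, H2-Aa, H2-Eb1, H2-DMa and H2-DMb1. The 150 bases before the start of the I-E beta chain gene and of the I-A alpha chain gene are shown. Both genes encode classical chains, and their windows differ in the letters searched for. Capitals mark AACNGATG, the core of an X box, and GATTGG, a Y box, both read 5′ to 3′ on the gene's strand.
H2-Eb1, chr17:34305717-34305866, plus strand: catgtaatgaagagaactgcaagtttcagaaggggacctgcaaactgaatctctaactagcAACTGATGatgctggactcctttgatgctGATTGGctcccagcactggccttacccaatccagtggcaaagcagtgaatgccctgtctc
H2-Aa, chr17:34287824-34287973, minus strand: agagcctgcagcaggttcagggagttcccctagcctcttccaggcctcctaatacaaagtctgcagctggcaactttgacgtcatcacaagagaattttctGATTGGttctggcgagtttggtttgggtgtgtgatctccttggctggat
In H2-Eb1 the X core began 89 bases and the Y box 60 bases before the start. H2-DMb1 held the same pair at 92 and 62 bases, and of these letters H2-Aa held only those of the Y box, at 49 bases. X boxes with other letters were not searched for, so a window without AACNGATG may still hold an X box. The first of 2 windows of H2-DMa held neither and the second held the Y box letters at 199 bases, and both lie away from the gene start in the deposited table. On the gene strand the X core letters were in 1.24% of 32851 windows and the Y box letters in 8.71%, against 2.32% and 16.1% on either strand. An X core followed by a Y box starting at most 40 bases after it was in 7 windows (0.0213%). Those of H2-Eb1, H2-DMb1, H2-DMb2 and H2-Eb2 were among them, and the letters were chosen with these windows in view.

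The classical chains H2-Aa, H2-Ab1 and H2-Eb1 rose 8.24-fold to 8.78-fold at day 3 and were still 2.58-fold to 2.78-fold higher at day 21, as ratios of mean FPKM. H2-Aa was 6.14, 7.60, 8.89, 10.2 and 13.1 FPKM in the muscles without injury and 43.0, 66.7, 73.6, 77.0 and 143 FPKM at day 3. It then ranged from 15.8 to 111 FPKM at day 7 (median 58.5) and from 21.6 to 52.9 at day 14 (median 38.3), and was 21.4, 22.8, 24.4, 28.9 and 30.2 FPKM at day 21. Every injured muscle lay above every muscle without injury, and the day 7 muscles overlapped those of day 3, day 14 and day 21. In the fit of log2(FPKM + 1) by limma over all genes, H2-Aa rose by 2.93 ± 0.37 on the log2 scale at day 3 (SE, n = 5 against 5, limma adjusted p = 2.40e-06). The rise was 2.36 ± 0.36 at day 7 and 1.87 ± 0.36 at day 14 (limma adjusted p = 6.66e-05 and 0.00130). At day 21 it was 1.41 ± 0.37 (limma adjusted p = 0.0347). In bulk muscle, fewer cells of a type and less RNA per cell cannot be told apart in any of these values.

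H2-Ab1, the partner of H2-Aa, averaged 11.7 ± 2.60 FPKM without injury (SD, n = 5), 96.1 ± 28.3 on day 3 (n = 5), 63.2 ± 37.5 on day 7 (n = 6), 43.8 ± 13.9 on day 14 (n = 6) and 30.1 ± 4.63 on day 21 (n = 5). H2-Eb1 averaged 12.5 ± 5.02, 105 ± 41.3, 76.0 ± 45.0, 49.0 ± 15.3 and 34.7 ± 5.25 FPKM in the same order. For both genes, too, the lowest injured muscle was above the highest muscle without injury, at 23.9 against 14.8 FPKM for H2-Ab1 and 27.4 against 17.5 FPKM for H2-Eb1. The rises at day 3 were 2.92 ± 0.33 and 2.98 ± 0.36 on the log2 scale (SE), and those at day 21 were 1.31 ± 0.33 for H2-Ab1 and 1.49 ± 0.36 for H2-Eb1 (limma adjusted p = 0.0272 and 0.0217). The library labelled day 3 replicate 5 was the highest of all 27 for the 3 chains, at 143, 141 and 173 FPKM. Without it and the library labelled day 7 replicate 5, the rise at day 3 was 2.70 for H2-Aa, 2.77 for H2-Ab1 and 2.78 for H2-Eb1, and at day 7 it was 2.19, 1.95 and 2.20.

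C57BL/6 mice carry the H-2b haplotype, in which the I-E alpha chain gene is defective, so the I-E beta chain has no partner in this strain. The table listed this gene as the pseudogene H2-Ea-ps. It was at 0 in 4 of the 5 muscles without injury and in 5 of 5 at day 21, and its group means were at most 0.119 FPKM. H2-Eb1 mRNA was nevertheless as abundant per length as that of H2-Ab1, with a median ratio of 1.03 without injury and 1.04 to 1.21 in the injured groups. The ranges of this ratio overlapped between all groups, from 0.728 to 1.32 without injury and from 0.985 to 1.43 after it.

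**Figure D1:**
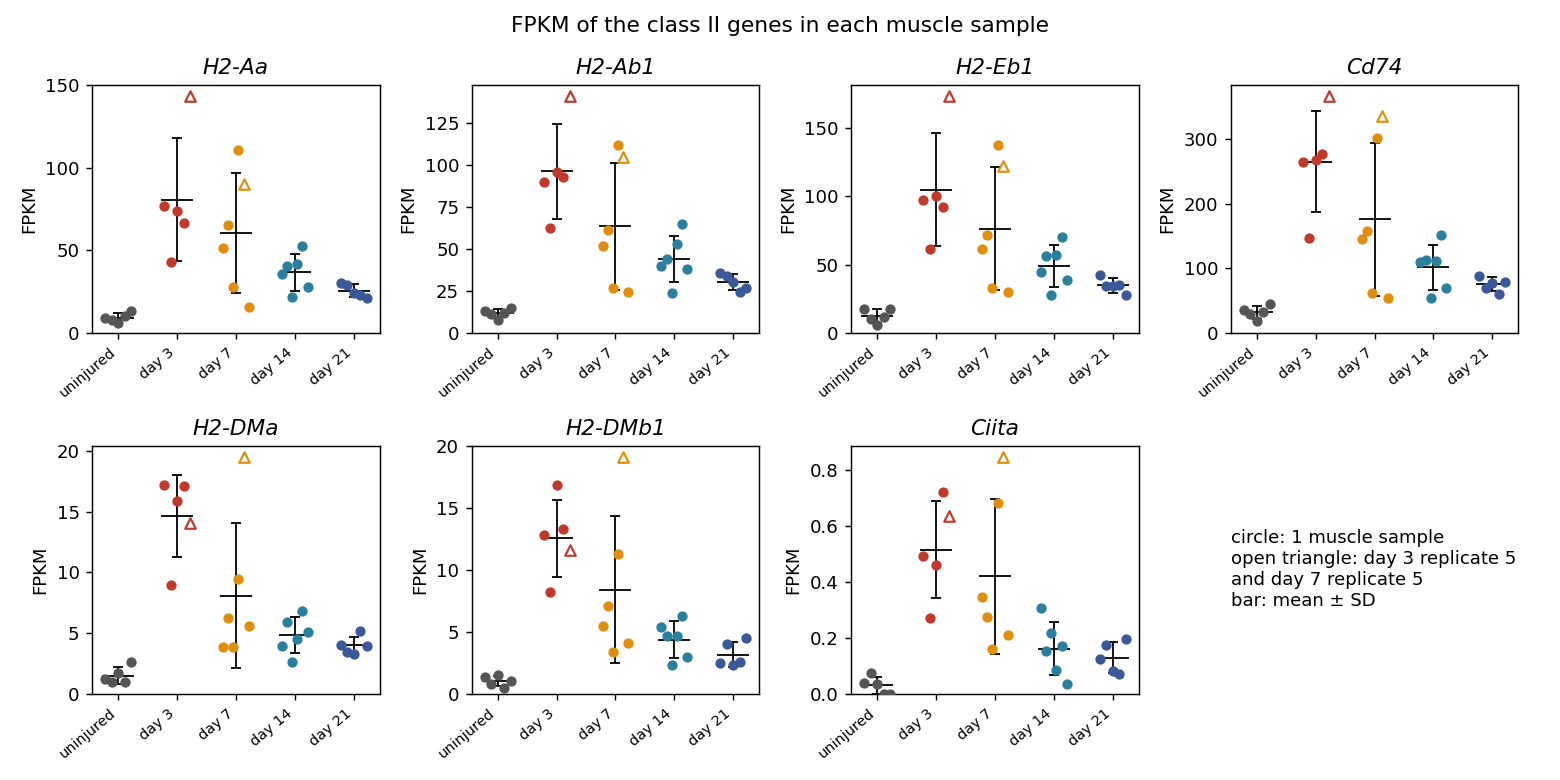
FPKM (vertical axes, linear from 0) of each class II gene in every muscle sample by group, with the mean and SD as bars and the libraries labelled day 3 replicate 5 and day 7 replicate 5 as open triangles. Group means are highest at day 3 and fall towards day 21 for all 7 genes, the day 7 samples overlap those of day 3 and day 14, and for H2-Aa the injured samples lie at 15.8 FPKM or above and those without injury at 13.1 or below.

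Cd74, the invariant chain, was the most abundant of the 7 genes in every group. The gene spans chr18:60803848-60812646 on the plus strand and contains the microRNA gene Mir5107. It was 18.2, 29.4, 31.9, 35.5 and 45.2 FPKM without injury and 147, 265, 268, 277 and 367 FPKM at day 3. Its values ran from 54.6 to 336 FPKM at day 7 (median 152) and from 53.5 to 152 at day 14 (median 110), and were 59.9, 70.2, 77.9, 79.0 and 88.7 at day 21. All injured muscles were above all muscles without injury, and all day 21 muscles were below all day 3 muscles. The rise was 3.01 ± 0.39 on the log2 scale on day 3, 2.16 ± 0.37 on day 7 and 1.61 ± 0.37 on day 14 (SE, limma adjusted p = 2.87e-06, 0.000266 and 0.00446). At day 21 Cd74 was 2.35 times its mean without injury, a difference of 1.25 ± 0.39 on the log2 scale (95% interval 0.45 to 2.05) that did not pass (limma adjusted p = 0.0725). It passed with the replicate number as a block (limma adjusted p = 0.0158). It did not pass with each sample's FPKM set to the same sum or with own read totals. The limma adjusted p reached 0.244 over all alternatives. Without the libraries labelled day 3 replicate 5 and day 7 replicate 5, the rise was 2.88 on day 3 and 1.91 on day 7, and the day 21 difference of 1.25 passed (limma adjusted p = 0.0431).

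The peptide exchange genes H2-DMa and H2-DMb1 were low without injury and rose 9.82-fold and 12.5-fold at day 3 as ratios of mean FPKM. H2-DMa was 0.940, 0.956, 1.24, 1.71 and 2.62 FPKM without injury, from 19 to 63 reads, and 8.98, 14.1, 15.9, 17.1 and 17.2 FPKM at day 3. It ranged from 3.86 to 19.5 FPKM at day 7 (median 5.90) and from 2.60 to 6.79 at day 14 (median 4.79), and was 3.31, 3.43, 3.93, 4.04 and 5.15 FPKM at day 21. Only 1 injured muscle, day 14 replicate 3, lay inside the range without injury. The day 7 maximum came from the library labelled day 7 replicate 5, and the next was 9.48 FPKM. H2-DMa rose by 2.66 ± 0.29 on the log2 scale on day 3, 1.70 ± 0.28 on day 7, 1.22 ± 0.28 on day 14 and 1.03 ± 0.29 on day 21 (SE, limma adjusted p = 3.71e-07, 0.000140, 0.00387 and 0.0473). Without the pair of libraries named above, the rise was 2.66 on day 3 and 1.43 on day 7.

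H2-DMb1 averaged 1.01 ± 0.420 FPKM without injury (SD, n = 5), from 8 to 26 reads, and 12.6 ± 3.11 on day 3, 8.40 ± 5.95 on day 7, 4.37 ± 1.49 on day 14 and 3.15 ± 1.01 on day 21. All injured muscles exceeded the highest value without injury, 1.49 FPKM, and the lowest of them was 2.29. On the log2 scale it rose by 2.75 ± 0.30 on day 3, 2.04 ± 0.29 on day 7 and 1.39 ± 0.29 on day 14 (SE, limma adjusted p = 4.33e-07, 3.35e-05 and 0.00225). At day 21 the difference was 1.04 ± 0.30 and did not pass (limma adjusted p = 0.0534). It passed with the replicate number as a block (limma adjusted p = 0.0340). It also passed without that pair of libraries (limma adjusted p = 0.0197), when the rise was 2.77 on day 3 and 1.78 on day 7. With each sample's FPKM set to the same sum or with own read totals, the day 21 difference did not pass. Its limma adjusted p reached 0.232 over all alternatives. These 2 genes lie near the pseudocount without injury, so their fold changes on this scale are smaller than the ratios of means. H2-DMb2 is a close copy of H2-DMb1, and the sharing of reads between them is uncertain. Its own mean was 0.228 FPKM without injury and 1.33 at day 3, a rise of 0.94 ± 0.19 on the log2 scale (SE, limma adjusted p = 0.000385).

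Ciita was the least abundant of the 7 and too low for the fit, which required 0.5 FPKM in at least 5 samples and found it in 4. It spans chr16:10480059-10528418 on the plus strand and overlaps Dexi on the opposite strand, and the libraries do not mark strand, so reads from the overlap cannot be told apart. Without injury Ciita had 5, 12, 4, 0 and 0 reads, or 0.0394, 0.0731 and 0.0358 FPKM in replicates 1 to 3, and the 2 libraries at 0 allow up to 0.0256 and 0.0215 FPKM (3 reads, counting error only). At day 3 it was 0.269, 0.461, 0.493, 0.636 and 0.723 FPKM, from 42 to 157 reads. The day 7 median was 0.312 FPKM (range 0.160 to 0.846), the day 14 median 0.162 (0.0356 to 0.307) and the day 21 median 0.124 (0.0698 to 0.197). All muscles at day 3 and day 7 were above those without injury, whereas 1 muscle at day 14 and 1 at day 21 were not.

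In two-sided exact permutation tests of log2(FPKM + 1), Ciita was higher at day 3 (p = 0.00794) and day 7 (p = 0.00433), the smallest p-values that these designs allow. The same exact test gave p = 0.0173 at day 14 and p = 0.0159 at day 21. Adjusted over 8 comparisons of this gene, these became 0.0212, 0.0212, 0.0277 and 0.0277 (exact permutation tests, Benjamini-Hochberg). When all genes were fitted without the filter, Ciita passed at day 3 and day 7 (limma adjusted p = 0.000382 and 0.00489) and did not at day 14 and day 21 (limma adjusted p = 0.365 and 0.715). Day 21 was below day 3 without overlap (exact permutation p = 0.00794, adjusted 0.0212). Day 14 against day 7 had an exact permutation p = 0.0411, and 0.0548 after adjustment.

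Across the 6 genes tested, 6 rose by day 3, and 6 passed as higher at both day 7 and day 14. Of all 14630 genes tested, in either direction, 43.2% were called at day 3, and this share was 29.4% for day 7 and 20.3% for day 14. At day 21, H2-Aa, H2-Ab1, H2-Eb1 and H2-DMa passed, 4 of 6, where 3.43% of all genes were called. The median log2 fold change of the 6 was 2.93, 2.15, 1.70 and 1.28 at the successive time points, against 0.01, 0.03, 0.02 and 0.01 over all genes tested. The number of the 7 genes with every injured muscle above every muscle without injury was 7 on both day 3 and day 7, 5 on day 14 and 6 on day 21. In this order, the same held for 19.8%, 7.25%, 7.67% and 5.26% of all genes tested. These 4 comparisons share the same 5 muscles without injury.

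The calls at day 21 depended on the settings. All 6 genes had an unadjusted p under 0.05 in limma at day 21, as did 19.8% of all genes tested. None of the 6 passed without the filter on low values or under either other scaling, and none passed without uninjured replicate 2, uninjured replicate 3, day 21 replicate 1 or day 21 replicate 2. Without uninjured replicate 4, 1 passed, and 2 passed without uninjured replicate 1 or without day 21 replicate 5. Without the libraries labelled day 3 replicate 5 and day 7 replicate 5, 6 passed, where 4.80% of all genes were called. The log2 differences at day 21 over all alternatives were 1.29 to 1.63 for H2-Aa and 0.93 to 1.63 for H2-DMb1, all positive.

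**Figure D2:**
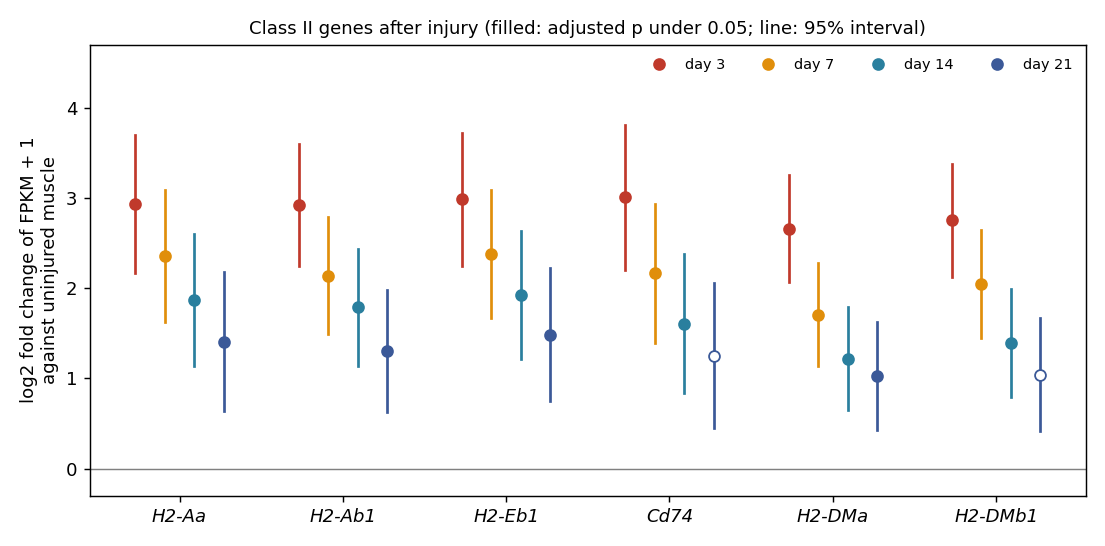
Log2 fold change of FPKM + 1 against uninjured muscle (vertical axis) for the 6 genes tested, with 1 point per time point, its 95% interval as a line, and filled points where the limma adjusted p was under 0.05. All intervals lie above 0, the day 3 values are 2.66 to 3.01, and the open points are Cd74 and H2-DMb1 at day 21.

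From day 3 to day 21 all 6 genes fell, by 1.5 to 1.76 on the log2 scale (limma adjusted p from 0.000259 to 0.00397), where 16.2% of all genes were called lower. The day 21 muscles were below the day 3 muscles without overlap for 7 of 7 genes, as were those of 12.2% of all genes tested, and mean FPKM at day 21 was 0.250 to 0.332 times that at day 3. None of the 6 passed in limma between successive time points. At unadjusted p under 0.05, 4 were lower at day 7 than at day 3, 1 at day 14 than at day 7, and 0 at day 21 than at day 14. Over all genes, in either direction, 15.7%, 12.4% and 6.21% had an unadjusted p under 0.05 in these 3 comparisons, and 0.0478%, 0.335% and 0% were called after adjustment. All log2 differences of the 6 were negative, from -0.96 to -0.19. Without the library labelled day 7 replicate 5, H2-Ab1, Cd74, H2-DMa and H2-DMb1 passed between day 3 and day 7, where 12.2% of all genes were called in place of 0.0478%. Without both libraries labelled replicate 5 at these times H2-DMa and H2-DMb1 passed (limma adjusted p = 0.000636 and 0.0122), where 15.5% of all genes were called.

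The size of the rise depended on the scaling, its direction did not. With each sample's FPKM set to the same sum (TPM), the median log2 fold change of all genes was 0.62 at day 3, 0.58 a week after injury, 0.36 at day 14 and 0.15 at the last time point. Of the genes called at day 3, 95.5% were then higher, against 54.1% with the deposited scaling and 91.4% with each sample's own read total. The class II genes lay 3.02 to 3.23 above that median at day 3 and 1.16 to 1.56 above it at day 21, against 2.65 to 3.00 and 1.01 to 1.47 with the deposited scaling.

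From group to group, the proportions of H2-Aa, H2-Eb1, Cd74, H2-DMa and H2-DMb1 to H2-Ab1 varied less than the levels of these genes. Within a group this did not always hold. Without injury the ratio of H2-DMb1 to H2-Ab1 ran from 0.0377 to 0.191, while H2-DMb1 itself ran from 0.438 to 1.49 FPKM. Cd74 was 2.70 ± 0.256 times H2-Ab1 without injury (SD, n = 5), 2.75 ± 0.263 at day 3 and 2.52 ± 0.306 at day 21 (n = 5), and 2.31 ± 0.344 at day 14 (n = 6), on the FPKM scale. H2-Aa was 0.785 ± 0.0990 times H2-Ab1 without injury and 0.812 to 0.937 times in the injured groups. The ratio of H2-DMa to H2-Ab1 had medians of 0.0948 without injury, 0.166 at day 3 and 0.114 at day 21, with ranges that overlapped. Over the 27 samples, Pearson's r between log2(FPKM + 1) of the 3 chains and Cd74 was 0.978 to 0.988, and 0.941 to 0.969 once each group's mean was removed. With group means removed, H2-DMa and H2-DMb1 correlated with each other at r = 0.786 and with those 4 genes at 0.579 to 0.765, and Ciita with the other genes at 0.580 to 0.753. These are descriptions over samples that share the library, its scaling and its cell composition.

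The library labelled day 3 replicate 5 was the highest of its group in the 3 chains and Cd74 but second lowest in H2-DMa and H2-DMb1. Conversely, the library labelled day 7 replicate 5 held the highest H2-DMa, H2-DMb1 and Ciita of all 27 samples, at 19.5, 19.1 and 0.846 FPKM, while day 7 replicate 4 was above it in the 3 chains.

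Besides H2-DMb2, which rose as given above, the other class II genes listed were low. H2-Eb2 was at 0 in all muscles without injury and at day 21, and its highest group mean was 0.0471 FPKM, at day 7. H2-Oa and H2-Ob encode the H2-DO dimer, which restrains H2-DM. H2-Oa averaged 0.0838 ± 0.0820 FPKM without injury and 0.583 ± 0.441 at day 3 (SD, n = 5), and the groups overlapped between 0.179 and 0.185 FPKM. H2-Ob averaged 0.133 ± 0.0624 FPKM without injury, at most 0.180, and 0.275 ± 0.0774 FPKM at day 3, at least 0.194, so these groups did not overlap. For 19.8% of all genes tested, too, every day 3 muscle was above every muscle without injury. Neither gene passed the filter, and neither was tested.

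Among the factors that bind the class II promoter, with the deposited scaling, 1 of 7 rose and 3 fell at day 3. Over all genes, 43.2% were called in either direction. The median of the list was -0.14 on the log2 scale. The falls turned with the scaling: with TPM and with each sample's own read total, 3 of 7 (Nfya, Creb1 and Rfxank) rose and 0 fell in limma, and the list's medians were 0.38 and 0.22. Under these 2 scalings 49.7% and 48.9% of all genes were called at day 3 in either direction. Set against the median of all genes, those of the list were -0.15, -0.24 and -0.19 under the deposited scaling, TPM and own read totals. Nfya, an NF-Y subunit, rose from 1.01 ± 0.410 to 2.11 ± 0.350 FPKM (SD, n = 5), by 0.65 ± 0.17 on the log2 scale (SE, limma adjusted p = 0.00387). In the deposited scaling its partner Nfyc fell by 0.40 ± 0.12 and the RFX subunit Rfxap fell by 0.53 ± 0.17 (limma adjusted p = 0.00872 and 0.0116), and the third was Nfyb, from 5.19 to 3.37 FPKM. Under TPM these 3 genes were 0.38, 0.22 and 0.18 higher in that order, and none passed (limma adjusted p = 0.0927, 0.512 and 0.511). Mean FPKM at day 3 against that without injury was 0.631 against 0.793 for Rfx5, 2.14 against 2.35 for Rfxank and 1.13 against 0.955 for Creb1, none of which passed with the deposited scaling. At day 21, 0 of 7 passed in limma, also at unadjusted p under 0.05.

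In the interferon gamma axis, 5 of 9 genes tested rose and 2 fell at day 3, where 43.2% of all genes were called in either direction. Without the libraries labelled replicate 5 at day 3 and day 7 these were 3 and 2, where 43.3% of all genes were called. With TPM or own read totals 5 rose and 0 fell, where 49.7% and 48.9% of all genes were called in either direction. Ifng itself was below the filter and at 0 reads in all 5 muscles without injury. Socs1, a feedback inhibitor of the pathway, rose from 0.655 ± 0.184 to 2.29 ± 0.932 FPKM at day 3 (SD, n = 5), by 0.96 ± 0.31 on the log2 scale (SE, limma adjusted p = 0.0136). The receptor chain gene Ifngr2 was 24.2 ± 1.62 FPKM without injury and fell by 0.75, 1.04 and 0.77 on the log2 scale on days 7, 14 and 21 (limma adjusted p = 0.00478, 0.000803 and 0.0298). With TPM the differences were -0.06, -0.60 and -0.59 and none passed (limma adjusted p = 0.859, 0.126 and 0.436), and with own read totals that of day 14 passed (limma adjusted p = 0.0365). On days 7, 14 and 21, 0 of 9 passed as higher in limma and 1, Ifngr2, as lower, while 3, 3 and 4 had an unadjusted p under 0.05 in either direction, as did 41.7%, 34.7% and 19.8% of all genes tested. At day 7, 4 of 9 passed as higher with TPM and 3 with own read totals, where 45% and 39.5% of all genes were called in either direction.

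Endosomal proteases prepare both the peptides and the invariant chain. Of 6 such genes, 5 rose at day 3 and 4 still passed at day 7. By day 14 only Ctss passed, and by day 21 none did, when 1 had an unadjusted p under 0.05 in limma (19.8% of all genes). Without the libraries labelled replicate 5 at day 3 and day 7, 6, 4 and 3 passed on days 3, 7 and 14, and with TPM or own read totals 6, 5 and 3. Over all genes, 49.7%, 45% and 15.1% were called on these days with TPM, and 48.9%, 39.5% and 17.5% with own read totals. Ctss, the protease that trims Cd74, was 2.20 ± 0.733 FPKM without injury, 289 ± 159 at day 3 (SD, n = 5) and 6.88 ± 1.68 at day 21. The reductase gene Ifi30 was 8.88 ± 2.13, 102 ± 47.4 and 13.9 ± 2.76 FPKM at these times. Their rises at day 3 were 6.26 ± 0.67 and 3.26 ± 0.44 on the log2 scale (SE, limma adjusted p = 2.86e-07 and 4.27e-06), while at day 21 neither passed (limma adjusted p = 0.280 and 0.468).

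MHC class I genes had a median log2 fold change of 0.95 at day 3 and 0.21 at day 21. Of 11 genes for class I chains, peptide transport and the immunoproteasome, 10 rose at day 3 and 2 passed at day 7. By day 14 the count was 1 and by day 21 it was 0, when 1 had an unadjusted p under 0.05 in limma (19.8% of all genes). Without the libraries labelled replicate 5 at day 3 and day 7, 7 rose at day 3 and 1 at day 7. At day 7, 11 rose with TPM and 9 with own read totals, where 45% and 39.5% of all genes were called in either direction. H2-D1, a class I heavy chain, went from 53.5 ± 4.99 to 152 ± 38.5 FPKM at day 3 (SD, n = 5), a rise of 1.45 ± 0.27 on the log2 scale, and B2m, the class I light chain, rose by 1.37 ± 0.30 (SE, limma adjusted p = 0.000180 and 0.000592). Among costimulatory genes 3 of 5 tested rose at day 3, where 43.2% of all genes were called in either direction. Cd86 went from 0.0490 to 1.31 FPKM and Cd40 from 0.202 to 1.16 FPKM. Without the libraries labelled replicate 5 at day 3 and day 7, 2 of 5 rose, near the 43.3% of all genes then called. The ubiquitin ligase gene March8 was 3.47 FPKM without injury and 3.32 at day 3 and did not pass at any time under any of the 3 scalings. March1, the other ligase gene listed, was below the filter and was not tested. The mean log2(FPKM + 1) of these 2 genes was 0.979 to 1.18 without injury (median 1.14) and 1.12 to 1.47 at day 3 (median 1.45).

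Markers of cells that carry class II did not all move with these genes, and their part in the result was not tested. All 10 macrophage and monocyte markers rose at day 3 and 9 passed at day 7. Of the same 10, 3 passed by day 14 and 0 by day 21, when 1 had an unadjusted p under 0.05 in limma (19.8% of all genes). Without the libraries labelled replicate 5 at day 3 and day 7, 10, 8, 6 and 1 passed at the 4 times. Their summed level was 23.96 to 36.7 FPKM without injury, 460 to 2534 on day 3, 63.8 to 2452 on day 7, 60.8 to 141 on day 14 and 48.1 to 80.6 on day 21, and none was at 0 throughout a group. Lyz2, a lysozyme of myeloid cells, was 16.9 ± 3.39 FPKM without injury, 1165 ± 633 at day 3 and 35.9 ± 8.14 at day 21 (SD, n = 5). The rise of Cd68, a lysosomal protein of macrophages, was 5.53 ± 0.65 on the log2 scale at day 3, and its difference at day 21 was 1.04 ± 0.65 (SE, limma adjusted p = 8.08e-07 and 0.381).

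How the classical chains compared with these markers after day 7 depended on the scale, and the difference was not tested. The median over samples of the mean log2(FPKM + 1) was 3.58 higher for the 10 macrophage markers and 2.86 higher for the 3 chains at day 3 than without injury. At day 21 the differences were 0.62 and 1.31. The chains' mean minus that of the macrophage markers was 1.78 to 2.69 log2 units without injury and 1.17 to 3.58 at day 3. On day 14 it was 2.90 to 3.52 and on day 21 2.96 to 3.42, so on this scale these 2 groups did not overlap with the muscles without injury. Several of the markers lie near the pseudocount without injury, such as Adgre1 at 0.232 FPKM and Ccr2 at 0.225 FPKM, so this scale understates their rise more than that of the chains. As ratios of mean FPKM, which carry no pseudocount, the median over the 10 markers was 48.8 at day 3, 3.74 at day 14 and 2.56 at day 21, against 8.38, 3.93 and 2.78 over the 3 chains. The summed FPKM of the chains over that of the markers was 0.819 to 1.52 without injury, 1.01 to 1.33 on day 14 and 1.13 to 1.70 on day 21, and these ranges overlapped. At day 3 it was 0.0991 to 0.993 (median 0.130), with the highest value in the library labelled day 3 replicate 5. The marker mean of the library labelled day 7 replicate 5 was 5.42 log2 units, against at most 3.71 in the other day 7 muscles.

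**Figure D3:**
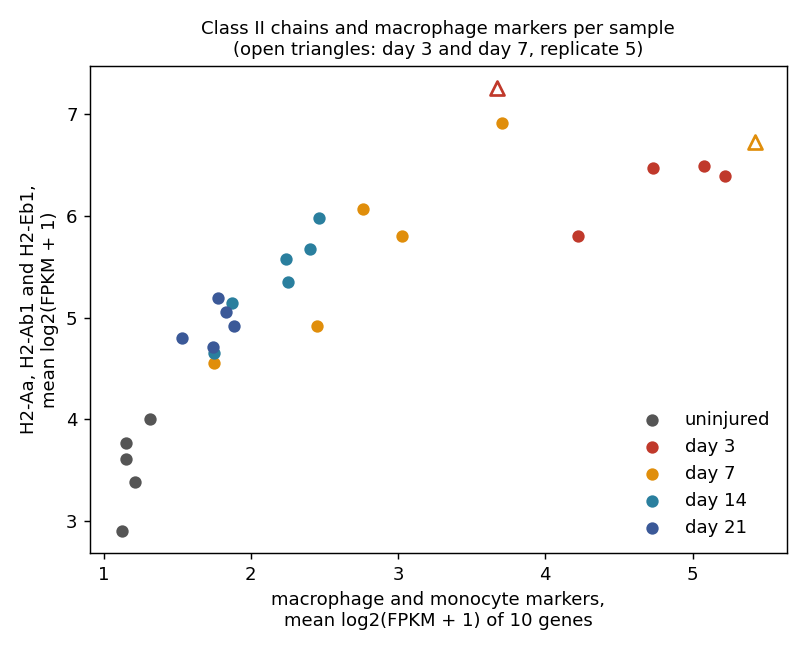
Mean log2(FPKM + 1) of H2-Aa, H2-Ab1 and H2-Eb1 (vertical axis) against that of 10 macrophage and monocyte markers (horizontal axis), 1 point per muscle sample, coloured by group, with the libraries labelled day 3 and day 7 replicate 5 as open triangles. The medians at day 14 and day 21 are 1.85 and 1.31 higher than without injury for the chains and 1.09 and 0.62 higher for the markers, whose low members the pseudocount compresses, and the open triangles lie apart from their groups.

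Dendritic cell markers were low. Of 8 genes 6 were tested, and 4 rose at both day 3 and day 7, where 43.2% and 29.4% of all genes were called in either direction. By day 14 the count was 2 and by day 21 it was 0, when 2 had an unadjusted p under 0.05 in limma (19.8% of all genes). Without the libraries labelled replicate 5 at day 3 and day 7, 3 rose at day 3 and 2 at day 7. Over all genes, 43.3% and 23.3% were then called. The list summed to 1.47 to 2.65 FPKM without injury, 5.60 to 9.94 at day 3 and 2.65 to 4.57 at day 21, and Flt3 and Ccr7 were at 0 in all muscles without injury. Itgax, the CD11c integrin, went from 0.0504 to 3.27 FPKM at day 3 and was 0.261 at day 21. Batf3, a transcription factor of cross-presenting dendritic cells, was 0.202 ± 0.253 FPKM without injury, 1.64 ± 0.710 at day 3 and 1.10 ± 0.613 at day 21 (SD, n = 5), where it did not pass (limma adjusted p = 0.130).

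The 6 B cell markers summed to 0.847 to 1.86 FPKM without injury, 1.94 to 2.61 at day 3 and 2.15 to 3.88 at day 21. Of the 2 tested, Cd79b rose at day 3, from 0.528 to 1.5 FPKM, and Cd79a did not pass at any time, at 0.617 FPKM without injury, 0.506 at day 3 and 1.27 at day 21. The 6 T cell markers, none of which passed the filter, summed to 0.0736 to 0.727 FPKM without injury and 0.640 to 3.14 at day 3, and Cd3d and Cd4 were at 0 in all muscles without injury.

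Markers of cells not known mainly for class II also differed between the groups, and their part in the result was not tested. Of 3 neutrophil markers tested (of 5), 3 rose at day 3, 2 at day 7 and 0 later, and without the libraries labelled replicate 5 at day 3 and day 7, 1 rose at day 7. The list summed to 0.456 to 3.93 FPKM without injury, 19.1 to 37.2 on day 3 and 0.298 to 3.46 on day 21, and Ly6g and Mpo were at 0 in all muscles of the first and last of these groups. S100a8, a calcium-binding protein of neutrophils, rose by 2.92 ± 0.60 on the log2 scale at day 3, and its partner S100a9 rose by 2.20 ± 0.58 (SE, limma adjusted p = 0.000373 and 0.00342). At day 21 both were near their values without injury, at 0.846 against 0.768 FPKM and 0.950 against 1.63 FPKM.

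Of 3 fibroblast markers, 2 rose on days 3, 7 and 14 and 1 on day 21. Over all genes, 43.2%, 29.4%, 20.3% and 3.43% were called at these times in either direction. Without the libraries labelled replicate 5 at day 3 and day 7, 3 rose on day 7, where 23.3% of all genes were called. The list summed to 29.5 to 81.0 FPKM without injury, 239 to 455 on day 3 and 63.5 to 115 on day 21. Col1a1, a collagen chain gene, rose by 3.66 ± 0.39 on the log2 scale at day 3 and was still 1.44 ± 0.39 higher at day 21 (SE, limma adjusted p = 2.72e-07 and 0.0392), where it did not pass with TPM or own read totals (limma adjusted p = 0.170 and 0.0980). The receptor gene Pdgfra rose by 0.84 ± 0.16 at day 3 and was 0.23 ± 0.16 higher at day 21 (SE, limma adjusted p = 0.000166 and 0.441). Among 3 endothelial markers, which summed to 51.3 to 62.4 FPKM without injury and 34.2 to 78.3 at day 3, Kdr, a VEGF receptor gene, fell at all 4 times in the deposited scaling, from 9.59 ± 0.521 to 3.29 ± 0.892 FPKM at day 3 and 4.74 ± 0.998 at day 21 (SD, n = 5), and with TPM or own read totals it passed as lower at day 3 and day 7. Cdh5, the endothelial cadherin, was 29.6, 26.4 and 30.4 FPKM at these times and did not pass.

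Muscle fibre genes went the opposite way, with 6, 3, 1 and 0 of 6 lower at the 4 times in the deposited scaling. Without the libraries labelled replicate 5 at day 3 and day 7, 1 was lower at day 7. At day 3, 3 were lower with TPM and 4 with own read totals, and under both scalings 0 were lower at days 7, 14 and 21. Myh4, the myosin of the fastest fibres, was 5195 ± 838 FPKM without injury and 1497 ± 709 at day 3 (SD, n = 5), and fell by 1.94 ± 0.43 on the log2 scale. Pvalb, a calcium buffer of fast fibres, fell by 2.31 ± 0.53 (SE, limma adjusted p = 0.000798 and 0.00101 for these 2 genes). At day 21 they were at 4218 and 20839 FPKM, against 19260 FPKM for Pvalb without injury, and neither passed.

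**Figure D4:**
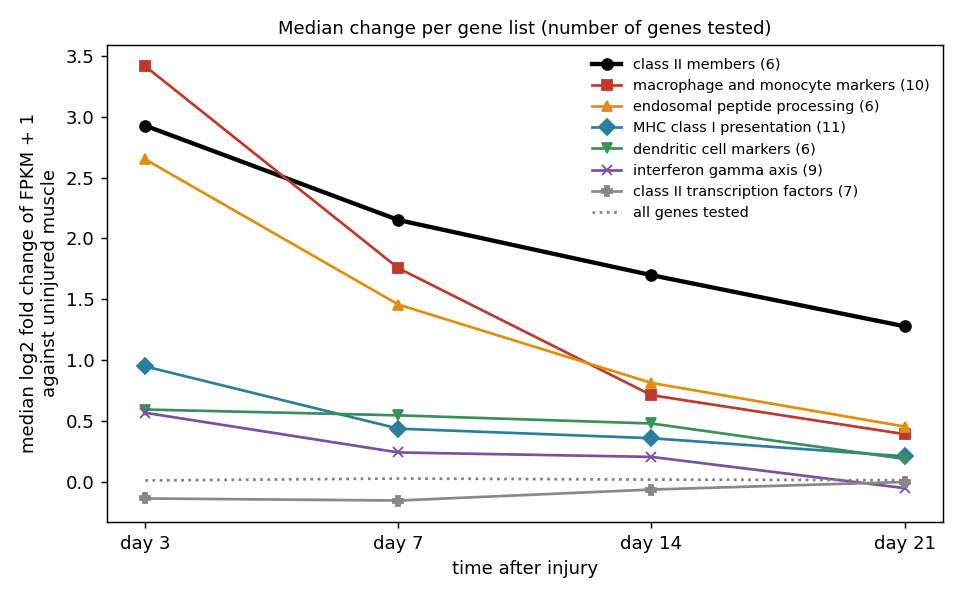
Median log2 fold change of FPKM + 1 against uninjured muscle (vertical axis) by time after injury (horizontal axis) for the 6 class II genes tested and 6 gene lists, with the number of genes tested in brackets and all genes as a dotted line. At day 3 the macrophage markers (3.41) lie above the class II genes (2.93), and from day 7 the class II genes lie highest, at 1.28 against 0.39 for macrophage markers at day 21, while the medians of the ratios of mean FPKM, without a pseudocount, were 2.72 and 2.56 at day 21 and 5.79 and 20.9 at day 7.

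The genes whose pattern was most like the mean of the 7 class II genes over the 27 samples were Cmtm3 (r = 0.969), the aminopeptidase gene Anpep (r = 0.957) and Marcksl1 (r = 0.952). They were followed by Serpinh1, Rab34, Vim, Fkbp10, Tmem119, Apoe and Rcn3, at r of 0.936 to 0.947. After each group's mean was removed, the most alike were Ttyh3 (r = 0.869), Cmtm3 (r = 0.861), Ly86 (r = 0.859), the class I gene H2-D1 (r = 0.851) and the interferon-induced Oas1a (r = 0.846). Prcp, Tpst1, Unc93b1, Marcks and Plvap followed at 0.833 to 0.836. The samples share libraries and scaling, and these values describe likeness only.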

How the data were processed

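Poly-A RNA of 27 muscles was sequenced from non-directional libraries. The authors aligned reads with HISAT2 2.0.5, counted them with featureCounts 1.5.0-p3, as the submitters' processing notes also list, and deposited FPKM for 54532 genes. The build was not given in the sources used here, and 98.3% of the 54409 genes found in GENCODE M21 (GRCm38) had the same coordinates. FPKM times gene length gave whole reads for 100% of values above 0 (within 0.02 reads or a relative 1e-06), so depth was known. The upper limits given for Ciita cover counting error only, whereas the intervals come from the limma fit and measure the spread between samples.

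For the 14630 genes that reached 0.5 FPKM in 5 or more samples, log2(FPKM + 1) was modelled by group in 1 limma fit of all samples (version 3.58.1, R 4.3.3) with a variance trend. Tests were two-sided, and p-values were adjusted by Benjamini-Hochberg within a comparison, with 0.05 as threshold. Ciita was compared by exact permutation tests in scipy 1.17.1. The fit was tested on simulated data. Members and gene lists were chosen with earlier results of these data known. All members, every gene of the first pair of lists (other class II chains and promoter factors) and the 2 largest changes of each other list are named, with the 10 genes most alike. Genes counted in 5 or fewer (Ifng, Flt3, Ccr7, Cd3d, Cd4) and March1 were named after their values were seen. Symbols stored as dates were read from 27 gene identifiers. Alternatives were another pseudocount, other filters and scalings, replicate blocks, 2 groups per fit and each sample left out. Voom weights and leaving out both libraries labelled replicate 5 at day 3 and day 7 were chosen after seeing the data.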

Additional observations from a re-analysis of the deposited data

Results flagged for a closer look

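Of 35 sets of samples examined (7 genes in 5 groups), 1 held a sample far from the others, where chance gives about 1 in 20. It was H2-DMa at day 7, 19.5 FPKM in replicate 5, and the nearest other sample had 9.48 FPKM, a gap of 0.641 of the range of the group.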

How the results depend on the processing

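Each of 48 values (6 genes in 8 comparisons) was recomputed under 37 alternatives. None of the 1776 values changed sign, and 1705 stayed on the same side of the threshold. At day 21 against uninjured muscle, 47 lost and 18 gained a call, and at day 7 against day 3, 6 gained one. The number of genes called at day 21 (4) was 0 without the filter, 0 with TPM rescaling and 0 with plain FPKM by the sample's own read total, and 0 to 6 with single samples left out. The number called between day 3 and day 7 (0) was 2 without both libraries labelled replicate 5 at these times and 0 to 4 with single samples left out. Calls over all genes at day 21 went from 502 to 247 without the filter, 72 with TPM, 133 with plain FPKM and 282 with voom weights. At day 7 against uninjured muscle they went from 4296 to 6582 with TPM. Between day 3 and day 7 they went from 7 to 2265 without both libraries, to 17 without the filter, and to 1 to 4 with a pseudocount of 0.1, a minimum of 1 FPKM, TPM, voom weights or either block. Between day 7 and day 14 they went from 49 to 28 without both libraries and to 5 to 18 with the pseudocount of 0.1, no filter, TPM or plain FPKM. Why these settings differed was not tested.

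With the replicate number as a block (replicate block), 6 genes passed at day 21, with 795 calls over all genes, and with the replicate letter 6 genes and 1233 calls. The blocks changed no other call of the 6 genes. Over all groups, samples with the same number had a median r of -0.003 over 51 pairs (15 over 0.1), and 0.020 over 49 pairs for the letter. Whether samples with the same number or letter shared handling cannot be told from these values. The 6 pairs of day 7 and day 14 ran from 0.092 to 0.566, with 5 over 0.1. The edgeR and DESeq2 alternatives were not run, and voom weights on the recovered reads were used in their place. Ciita and H2-DMb1 rest on 0 to 12 and 8 to 26 reads without injury, which limits their fold changes.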
